A study of Mus musculus with 32 samples.

Results

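The stretch of mouse chromosome 15 around Cdh6 was described through 82 protein-coding genes, of 48576 gene identifiers in the expression tables. Members were chosen by position, gene type and symbol. They are the protein-coding genes of GENCODE M21 (GRCm38) that start on chromosome 15 below 33 Mb, leaving out 7 genes, namely Cdh6 itself, Cdh9, Cdh10, Cdh12, Cdh18, Ctnnd2 and Rpl37. All 82 members were present in the tables. RNA was taken separately from the forebrain (Fb) and midbrain (Mb) of embryos of a B6C3F1-derived background at E9.5, with 16 libraries per tissue. WT was represented by 6 of these. There were 4 of Cdh6/8/11 triple knockout embryos with exencephaly (TKO6.8.11), 3 of a double knockout group labelled for Cdh8 and Cdh11 (DKO8.11), and 3 of a double knockout group labelled for Cdh6 and Cdh8 (DKO6.8). DKO8.11 embryos are taken here as exencephalic and DKO6.8 embryos as carrying a cranial defect. The study defines both phenotypes among Cdh8/11 double knockouts, and the headings and records of these groups disagree (below). Which phenotype belongs to which group is therefore open.

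WT embryos came from matings of WT mice, and mutant embryos from matings of Cdh6/8/11 triple heterozygous mice. All mutant alleles descend from 1 CRISPR/Cas9 founder with short deletions in the exon that carries the start codon of each Cdh. The genotype of the DKO8.11 embryos at Cdh6 is not stated in the labels. The methods of the study describe both double knockout classes as Cdh8/11, whereas the labels of DKO6.8 name Cdh6 and Cdh8, so a lack of Cdh6 in DKO6.8 rests on the labels. In 12 tables of the double knockouts the column heading and the record that holds the table name opposite groups, and the headings were followed. The unit was FPKM (fragments scaled to exon length and to the mapped fragments of the library). The depth, estimated from the steps between low values, was 1.94 to 3.24 M fragments per library. A gene of 3 kb at 1 FPKM therefore rests on about 5.82 to 9.72 fragments. The 8 forebrain markers summed to 213 to 288 FPKM in WT Fb and 7.80 to 65.4 FPKM in WT Mb, and the 8 midbrain markers to 82 to 117 FPKM in WT Fb and 207 to 331 FPKM in WT Mb. The library labelled DKO6.8 Mb replicate 2 stood apart, with midbrain markers at 126 FPKM where every other Mb library had 207 FPKM or more. WT Mb replicate 5 stood apart as well, with En1 and En2, transcription factors of the midbrain and its border, at 3.57 and 8.35 FPKM where the other Mb libraries had at least 19.1 and 36.6 FPKM, and with the highest forebrain sum of WT Mb. Without either library, 0 members were called in Mb against WT and the count between the tissues of its group did not change.

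Type II cadherins are transmembrane proteins that join neighbouring cells through calcium-dependent binding, and several of their genes lie in a row on this chromosome within a stretch poor in other genes. Genes that lie close together are inherited together. An animal selected for 2 copies of an edited Cdh6 allele is therefore likely also to carry 2 copies of the neighbouring alleles of the founder chromosome. B6C3F1 is a hybrid of the C57BL/6 and C3H strains, so the neighbouring alleles can be of either strain. The comparison asked whether genes of the interval were expressed at other levels in the groups labelled as lacking Cdh6 than in WT, and whether DKO8.11 differed in the same way.

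Cdh6 starts at position 13173675 and runs toward lower positions on the minus strand. On its lower side lay 60 members, and 22 on its higher side. The nearest member on the lower side, Drosha, started 0.349 Mb from the Cdh6 start. The nearest on the higher side, the acyl-CoA thioesterase gene Acot10, started 7.49 Mb away, and the next, Basp1, 12.2 Mb away. Within 5 Mb of Cdh6 there were 35 members, and within 10 Mb there were 61.

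**Figure D1:**
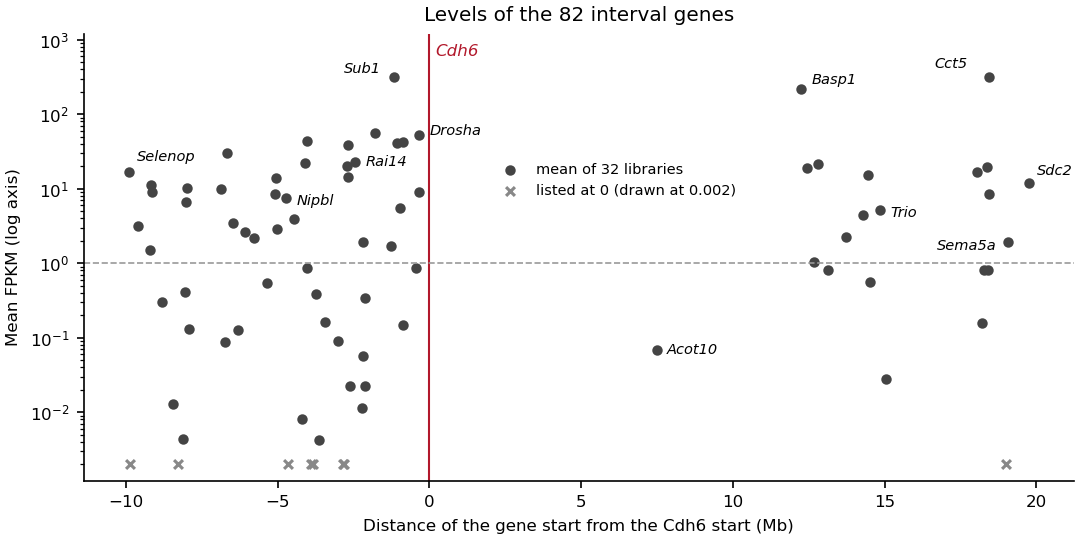
Mean FPKM over the 32 libraries (log axis) of each of the 82 members, against the distance of its start from the Cdh6 start in Mb. The dashed line is 1 FPKM, and crosses are the 8 members listed at 0 in every library. Members at 100 FPKM or more (Cct5, Sub1 and Basp1) lie on both sides of Cdh6, and Acot10 stands alone between Cdh6 and Basp1.

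The members covered a wide range of levels. A mean of at least 100 FPKM was seen in 3 members: Cct5, a subunit of the chaperonin that folds actin and tubulin, at 318 FPKM, the transcriptional coactivator Sub1 at 316 FPKM, and Basp1, a membrane-bound protein abundant in growing axons, at 221 FPKM. A further 22 members had means of 10 to 100 FPKM, 21 lay between 1 and 10 FPKM, and 36 lay under 1 FPKM. Above 0 in every library were 48 members, and 8 were listed at 0 in all 32 libraries (Agxt2, Ccdc152, Gm21973, Gm2310, Mroh2b, Tas2r119, Ugt3a1 and Ugt3a2). Among the 25 members with a mean of at least 10 FPKM, the coefficient of variation over all 32 libraries was 6.05% to 33.1%, with a median of 15.7%.

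Several members start back to back. Drosha, the nuclear RNase that opens microRNA precursors, and the uncharacterized gene 6030458C11Rik face each other with 165 bases between their starts. Brix1, needed to assemble the large ribosomal subunit, and Rad1, part of the clamp that senses DNA damage, are 70 bases apart. Cct5 and the mitochondrial methyltransferase gene Fam173b are 47 bases apart. Facing genes were at unequal levels, with means over all libraries of 52.4 FPKM for Drosha against 9.0 FPKM for 6030458C11Rik, 39.1 FPKM for Brix1 against 14.3 FPKM for Rad1, and 318 FPKM for Cct5 against 8.55 FPKM for Fam173b. The bases between the RefSeq starts are given for the pair nearest to Cdh6 and for Brix1 and Rad1, on the plus strand of GRCm38.p6. They lie at chr15:12824658-12824814 and chr15:10485938-10486017. Capitals mark matches, on either strand, to CCGGAAG (ETS factors) or ATTGG (the inverted CCAAT box), of which some run into each other, so a run of capitals can hold both.
6030458C11Rik and Drosha: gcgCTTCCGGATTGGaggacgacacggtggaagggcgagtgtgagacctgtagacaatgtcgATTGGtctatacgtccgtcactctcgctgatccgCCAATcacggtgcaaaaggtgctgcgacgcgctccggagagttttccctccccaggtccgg
Brix1 and Rad1: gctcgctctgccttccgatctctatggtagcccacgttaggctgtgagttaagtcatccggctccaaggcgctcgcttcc
The stretch between 6030458C11Rik and Drosha held both motifs, and that between Brix1 and Rad1 held neither. In windows of the length of the former stretch taken just before each start, CCGGAAG was found in 5.63% and ATTGG in 25.2% of all 32851 promoters in the table.

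Cdh6 itself was examined first, since the comparison rests on it. The deletions are short, so FPKM over the whole gene does not read them directly. In Mb, Cdh6 was at 3.38, 1.04, 1.79, 2.66, 3.55 and 2.41 FPKM in the WT libraries, and at 0.388, 0.353, 3.10 and 0.345 FPKM in the libraries labelled TKO6.8.11. In Fb it was at 4.0, 3.19, 2.04, 2.19, 3.61 and 3.33 FPKM in WT, and at 1.84, 0.766, 3.74 and 0.572 FPKM in TKO6.8.11. In each tissue 3 of 4 TKO6.8.11 libraries lay below all WT libraries, and the library labelled TKO6.8.11 replicate 3 lay within the WT range. Without that library the difference from WT on the log2(FPKM + 1) scale went from -0.69 to -1.01 in Fb and from -0.90 to -1.30 in Mb, and 0 members of the interval were called in either tissue. DKO6.8 libraries were at 3.43, 1.72 and 2.78 FPKM in Fb and 1.76, 2.11 and 1.29 FPKM in Mb, with 1 Fb library below all WT. DKO8.11 libraries were at 3.62, 3.72 and 4.34 FPKM in Fb and 3.12, 2.47 and 1.86 FPKM in Mb, with none below all WT. Two-sided exact permutation tests against WT gave p = 0.0952 in the Mb and 0.124 in the Fb of TKO6.8.11, 0.238 and 0.5 in DKO6.8, and 0.976 and 0.0952 in DKO8.11, and no p was under 0.248 after adjustment over the 6 tests. Cdh8 was at 1.14 to 10.1 FPKM in WT Mb and 0.851 to 2.49 FPKM in the mutant Mb libraries, and the WT maximum, in replicate 5, was followed by 5.69 FPKM. Cdh11 was at 14.5 to 16.6 FPKM in TKO6.8.11 Mb against 17.9 to 28.7 FPKM in WT Mb, with no overlap. DKO8.11 Mb, at 18.4, 17.6 and 18.7 FPKM, overlapped with WT Mb, and so did DKO6.8 Mb, at 22.4, 27.2 and 16.6 FPKM. In Fb, DKO8.11 lay below all WT libraries for both genes. Cdh8 was at 0.423 to 0.702 FPKM there against 0.840 to 1.96 FPKM, and Cdh11 at 17.1 to 18.7 FPKM against 19.5 to 25.3 FPKM. TKO6.8.11 Fb (Cdh8 0.911 to 3.15 FPKM, Cdh11 19.8 to 21.4 FPKM) and DKO6.8 Fb (0.449 to 1.44 and 12.7 to 25.3 FPKM) overlapped with WT. Neither gene passed the adjusted test in any group (limma).

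The nearest members on the lower side did not differ detectably from WT. Drosha was at 47.9, 54.8, 51.6 and 47.3 FPKM in TKO6.8.11 Mb, 52.3, 48.7 and 55.3 FPKM in DKO6.8 Mb and 54.6, 51.2 and 48.3 FPKM in DKO8.11 Mb, and all of these lay within the WT Mb range of 45.6 to 59.6 FPKM. In Fb, Drosha was at 70.0, 56.5, 57.6 and 46.5 FPKM in TKO6.8.11 and at 48.8 to 56.5 FPKM in WT, so the groups overlapped. Its differences from WT over the 6 comparisons ran from -0.14 to 0.11 on the log2(FPKM + 1) scale, and the 95% intervals from -0.34 to 0.35. For 6030458C11Rik the differences were 0.00 to 0.13. Golph3, a Golgi protein that sorts glycosyltransferases, was at 38.2 to 44.1 FPKM over the mutant Mb libraries and 38.8 to 46.4 FPKM in WT Mb. Its differences from WT over the 6 comparisons were -0.07 to 0.09 with 95% intervals from -0.27 to 0.30. Mtmr12, a partner of myotubularin lipid phosphatases, differed by -0.03 to 0.21. No adjusted p of these 4 genes was under 0.795 (limma).

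On the higher side, beyond the cadherin genes, none of the 4 nearest tested members passed. Basp1, the nearest, differed from WT by -0.10 to 0.21, and its DKO6.8 Fb libraries all lay above WT Fb (0.21, adjusted p = 0.561). Myo10, a myosin of filopodia, was at 24.9, 26.5, 20.2 and 17.3 FPKM in TKO6.8.11 Fb and 14.1 to 23.1 FPKM in WT Fb, and at 16.2 to 18 FPKM in TKO6.8.11 Mb and 13.8 to 24.0 FPKM in WT Mb. Its differences from WT ranged from -0.24 to 0.30 over the 6 comparisons. Zfp622, a factor in maturation of the large ribosomal subunit, differed by -0.20 to 0.03 and Fbxl7, an F-box protein, by -0.39 to 0.31. The adjusted p of Myo10, Zfp622 and Fbxl7 was 0.607 or more.

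**Figure D2:**
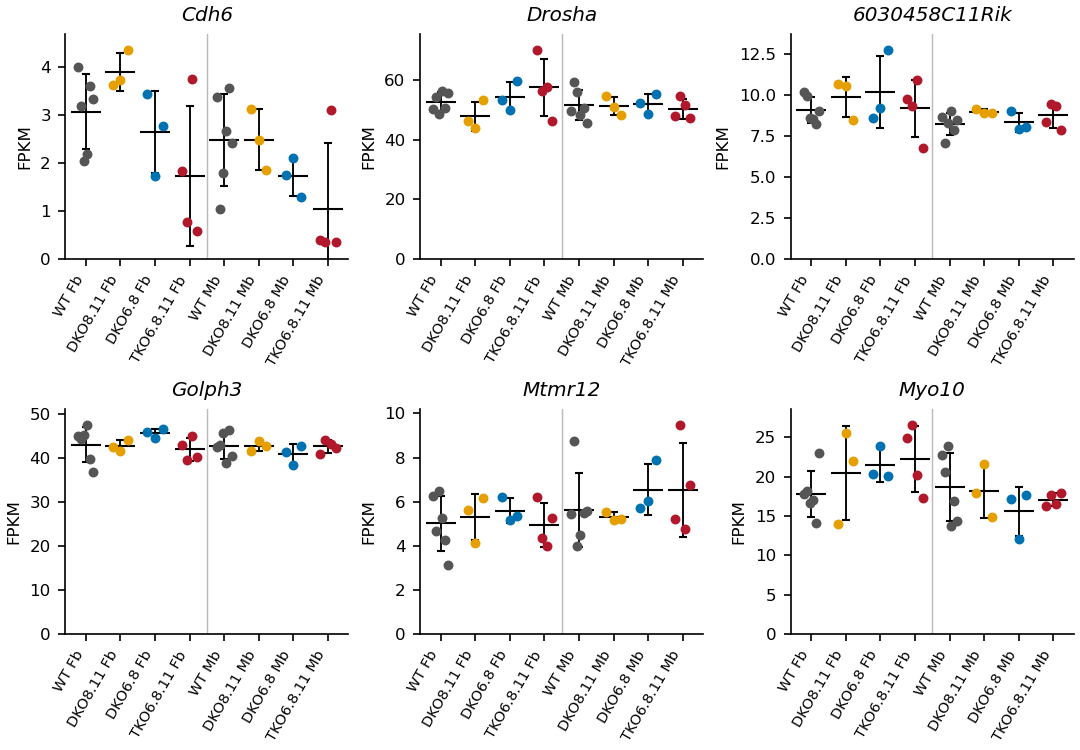
FPKM of Cdh6, its 4 nearest tested members on the lower side and Myo10 in every library of the 8 groups. Points are libraries, bars the mean ± SD (the lower bar of Cdh6 in TKO6.8.11 Mb is cut at 0). Cdh6 falls below the WT points in 3 of 4 TKO6.8.11 libraries of each tissue, while the groups of the other genes overlap with WT.

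No member of the interval passed the test against WT in any group or tissue. The test was limma, run over genes averaging 1 FPKM or more, on log2(FPKM + 1), with Benjamini-Hochberg adjustment over all genes of the fit and a threshold of 0.05. In Fb, 0 of 48 tested members passed in TKO6.8.11, 0 of 47 in DKO6.8 and 0 of 47 in DKO8.11, beside 0.0603%, 0.0378% and 0.0759% of all genes. In Mb, 0 of 45 passed in TKO6.8.11, 0 of 45 in DKO6.8 and 0 of 46 in DKO8.11, beside 0.0898%, 0.0375% and 0.0903% of all genes. Calls were thus rare everywhere, at 5 to 12 genes per comparison, and a share of 0 among the members is close to that background. None of the genes called lay on chromosome 15. Tested in all 6 comparisons were 45 members, 49 in at least 1, and 33 were too low for any.

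At an unadjusted p under 0.05 there were 14 of 278 member tests, or 5.04%, against 7.44% of all tests. In Fb these were 1 member in TKO6.8.11 (background 8.66%), 3 in DKO6.8 (8.44%) and 2 in DKO8.11 (7.01%), and in Mb 2 in TKO6.8.11 (8.38%), 5 in DKO6.8 (6.69%) and 1 in DKO8.11 (5.46%). Differences were small as well. Their median absolute difference was 0.10 in TKO6.8.11 Fb, 0.10 in TKO6.8.11 Mb, 0.10 in DKO6.8 Fb, 0.11 in DKO6.8 Mb, 0.11 in DKO8.11 Fb and 0.11 in DKO8.11 Mb, and the medians over all genes tested were 0.14 to 0.15.

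The intervals set a limit on what could have been missed. In 262 of 278 member tests the 95% interval lay within 1 log2 unit on either side of 0, so these intervals do not reach a 2-fold change on the log2(FPKM + 1) scale. For members with a mean of at least 5 FPKM this held in 193 of 198 tests, and in 122 of them the interval lay within 0.5. Among the wide intervals were those of Cmbl, a low member with a mean of 0.810 FPKM, with -1.03 to 1.06 in DKO6.8 Fb, and of Oxct1, an enzyme of ketone body use with a mean of 8.98 FPKM, with -0.93 to 1.13 in DKO6.8 Mb. Small shifts could not be detected at this depth, and shifts of the 33 members below the filter were not tested in these fits.

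**Figure D3:**
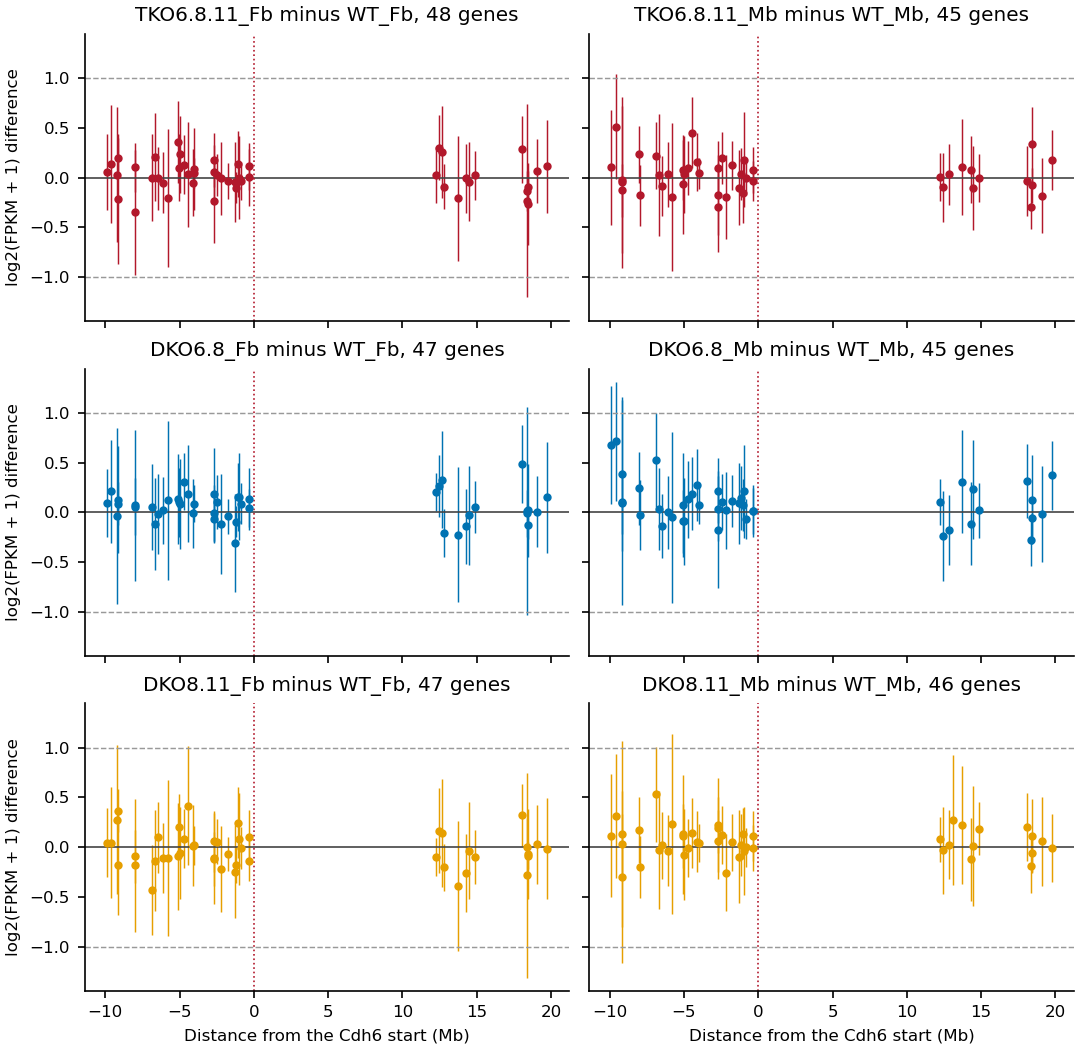
Difference of each tested member from WT on the log2(FPKM + 1) scale, with its 95% interval, against the distance of its start from the Cdh6 start (dotted line), for 3 mutant groups and both tissues. Dashed lines mark a difference of 1. The signed medians of the distance bins lie between -0.09 and 0.11, and 0 members passed the adjusted threshold.

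Signed median differences were small at every distance from Cdh6, although higher and lower members can cancel in them. On the lower side, the 17 or 18 tested members within 5 Mb had median differences from WT of 0.01 in TKO6.8.11 Fb, 0.04 in TKO6.8.11 Mb, 0.09 in DKO6.8 Fb, 0.09 in DKO6.8 Mb, 0.02 in DKO8.11 Fb and 0.05 in DKO8.11 Mb. The 15 tested members at 5 to 10 Mb had medians of 0.06, 0.03, 0.08, 0.07, -0.09 and 0.11 in the same order. The 13 to 15 tested members more than 12 Mb away on the higher side had medians of -0.01, -0.0027, 0.01, 0.02, -0.07 and 0.04. The median absolute differences of these bins were 0.05 to 0.18. The largest was that of DKO6.8 Mb on the higher side, at 0.178 beside 0.146 over all genes of that fit. All groups were compared with the same WT libraries of their tissue.

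By role, 67 members fell into 7 groups and 15 into none. Of the 13 cell surface receptors and ligands, 5 were tested and 8 had means under 1 FPKM. Lifr, the receptor subunit for leukaemia inhibitory factor, and Ghr, the growth hormone receptor, were at means of 2.66 and 3.13 FPKM. Osmr, the oncostatin M receptor, the prostaglandin E2 receptor Ptger4 and Gdnf, a neurotrophic ligand for the Ret receptor, were too low to test, at means of 0.125, 0.130 and 0.546 FPKM. Gdnf was at 0.194 to 0.528 FPKM in WT Fb and 0.123 to 1.80 FPKM in WT Mb. Npr3, the clearance receptor for natriuretic peptides, was tested and differed from WT by -0.31 to 0.09. Of the 30 tests in this group 1 had an unadjusted p under 0.05, that of Ghr in DKO6.8 Mb.

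Of the 5 complement and immune genes, 4 had means under 1 FPKM. The complement genes C6, C7 and C9 were at means of 0.0131, 0.00442 and 0.0885 FPKM. Fyb, an adaptor of blood cells, was at 29.8 FPKM and differed from WT by -0.13 to 0.21. The 5 genes listed for cilia and axonemes (Capsl, Dnah5, Ropn1l, Spef2 and Ttc23l) were all under 1 FPKM and none was tested. Cplane1, which acts in ciliogenesis and was not on that list, had a mean of 2.86 FPKM and differed from WT by -0.09 to 0.23, with no adjusted p under 0.746.

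The other groups were expressed more widely. All 10 genes listed for signalling and ubiquitin turnover, among them Rictor, Prkaa1, Trio and the F-box genes Skp2, Fbxl7 and Fbxo4, entered at least 1 test, 10 of 11 genes of RNA, chromatin and nuclear transport did so, and so did 10 of 11 genes of the cytoskeleton, trafficking and folding and 8 of 12 metabolic genes. Skp2, the F-box protein that targets cell cycle inhibitors for breakdown, was at 38.7 to 49.9 FPKM in every library and differed from WT by 0.02 to 0.09. Cct5 was at 280 to 364 FPKM and differed by -0.12 to -0.06, below WT in all 6 comparisons with no adjusted p under 0.628. Rictor, the defining subunit of mTOR complex 2, differed by -0.13 to 0.10, and Prkaa1, a catalytic subunit of AMP-activated kinase, by -0.09 to 0.24. Nup155, of the nuclear pore, differed by -0.09 to 0.21.

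A few members stood apart from WT without passing the adjusted test. No overlap between mutant and WT libraries was seen in 1 member in TKO6.8.11 Fb (2.08% of members, 2.23% of all genes), 1 in TKO6.8.11 Mb (2.22%, 1.74%), 2 in DKO6.8 Fb (4.26%, 4.22%), 0 in DKO6.8 Mb (3.38% of all genes), 1 in DKO8.11 Fb (2.13%, 3.70%) and 2 in DKO8.11 Mb (4.35%, 3.0%). No member was apart from WT in both tissues of a group. The members named in the following were chosen after their values were seen.

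The uncharacterized gene AW549877 was at 9.45, 8.86, 10.3, 9.58, 9.76 and 9.19 FPKM in WT Fb. It was at 12.2, 13.2 and 12.4 FPKM in DKO8.11 Fb and 10.3, 11.9, 10.8 and 11.4 FPKM in TKO6.8.11 Fb, above every WT library in both groups. DKO6.8 Fb, at 10.2, 10.3 and 9.92 FPKM, overlapped with WT. The differences were 0.37 (SE 0.10) in DKO8.11, 0.20 (SE 0.09) in TKO6.8.11 and 0.09 (SE 0.10) in DKO6.8, with adjusted p of 0.368, 0.559 and 0.829. The largest of the 3 was thus in DKO8.11 by the headings, and with the grouping by record the values of DKO8.11 and DKO6.8 change places. In Mb, WT spread from 9.64 to 14.8 FPKM and overlapped with every mutant group.

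Slc1a3, a glutamate transporter of radial glia, was at 5.43, 4.23, 7.29 and 4.07 FPKM in TKO6.8.11 Mb and 2.84 to 4.01 FPKM in WT Mb. The groups did not overlap. The difference was 0.45 (SE 0.16, adjusted p = 0.498), and 0.31 without the library labelled TKO6.8.11 replicate 3. In Fb it was at 2.31, 3.69, 2.27 and 5.08 FPKM in TKO6.8.11 and 1.85 to 4.80 FPKM in WT. Nipbl, which loads cohesin onto chromatin, was at 8.57, 7.87 and 9.71 FPKM in DKO6.8 Fb and 5.63 to 7.81 FPKM in WT Fb, a difference of 0.31 (SE 0.13, adjusted p = 0.562). Its Mb libraries of DKO6.8, at 8.15, 9.99 and 5.57 FPKM, lay on both sides of WT. Basp1 was at 229, 209 and 200.4 FPKM in DKO6.8 Fb, above the WT Fb range of 161 to 200.3 FPKM, a difference of 0.21 (SE 0.08, adjusted p = 0.561). Trio was at 6.10, 6.44 and 5.74 FPKM in DKO8.11 Mb, just above WT Mb at 4.76 to 5.67 FPKM, a difference of 0.19 (SE 0.12, adjusted p = 0.914). Amacr, a racemase of branched-chain fatty acids, was at 1.79, 1.60 and 1.65 FPKM in DKO8.11 Mb, just below WT Mb at 1.83 to 2.85 FPKM, a difference of -0.26 (SE 0.17, adjusted p = 0.924). Dap, a regulator of autophagy, was higher than the WT mean in all 3 DKO6.8 Fb libraries, at 19.4, 25.4 and 15 FPKM against 10.1 to 16 FPKM, a difference of 0.48 (SE 0.18, adjusted p = 0.516). In DKO8.11 Fb it was at 16, 17.4 and 18.8 FPKM, a difference of 0.32 (SE 0.14, adjusted p = 0.693), and both groups overlapped with WT. March6, a ubiquitin ligase of the endoplasmic reticulum, was lower on average in TKO6.8.11 Mb, at 17.5, 19.0, 17.0 and 16.9 FPKM against 18.3 to 23.8 FPKM in WT, with a difference of -0.29 (SE 0.10, adjusted p = 0.485).

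The Mb of DKO6.8 held 5 members with an unadjusted p under 0.05, of which 4 were higher. Selenop, a secreted carrier of selenium, was at 26.0, 30.0 and 24.3 FPKM against 20.3, 30.6, 11, 14.1, 12.9 and 14.8 FPKM in WT Mb, a difference of 0.68 (SE 0.27, adjusted p = 0.702). Ghr was at 4.20, 4.68 and 6.12 FPKM against 1.26 to 4.29 FPKM (0.71, SE 0.27, adjusted p = 0.687). Dab2, an endocytic adaptor, was at 14.7, 16 and 9.16 FPKM against 6.57 to 11.5 FPKM (0.53, adjusted p = 0.712). DKO8.11 Mb showed a like difference of Dab2, at 16.8, 9.14 and 14.1 FPKM (0.53, adjusted p = 0.881). The heparan sulphate proteoglycan Sdc2 was at 17.7, 14.9 and 14.9 FPKM against 10.3 to 16.8 FPKM. In each of these 4 genes at least 1 DKO6.8 library lay below the highest WT library, so the groups overlapped. The member that was lower was March6, by -0.28. Without the library labelled DKO6.8 Mb replicate 2 the differences were 0.59 for Selenop, 0.75 for Ghr, 0.39 for Dab2 and 0.41 for Sdc2, with no adjusted p under 0.885. The summed level of 7 head mesenchyme markers was 198, 267 and 175 FPKM in the same DKO6.8 Mb libraries and 106 to 201 FPKM in WT Mb. In DKO6.8 Mb 7 of 7 markers were higher on average (median difference 0.62) and 0 were called. The same held for 7 of 7 in DKO8.11 Mb (0.16) and 5 of 7 in TKO6.8.11 Mb (0.07), with 0 called. Surface ectoderm markers summed to 20.7, 72.2 and 56.3 FPKM in the DKO6.8 Mb libraries against 23.9 to 37.1 FPKM in WT Mb. The part of these cell types in these 4 differences was not tested, and in bulk tissue more cells of a type and more RNA per cell cannot be told apart.

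**Figure D4:**
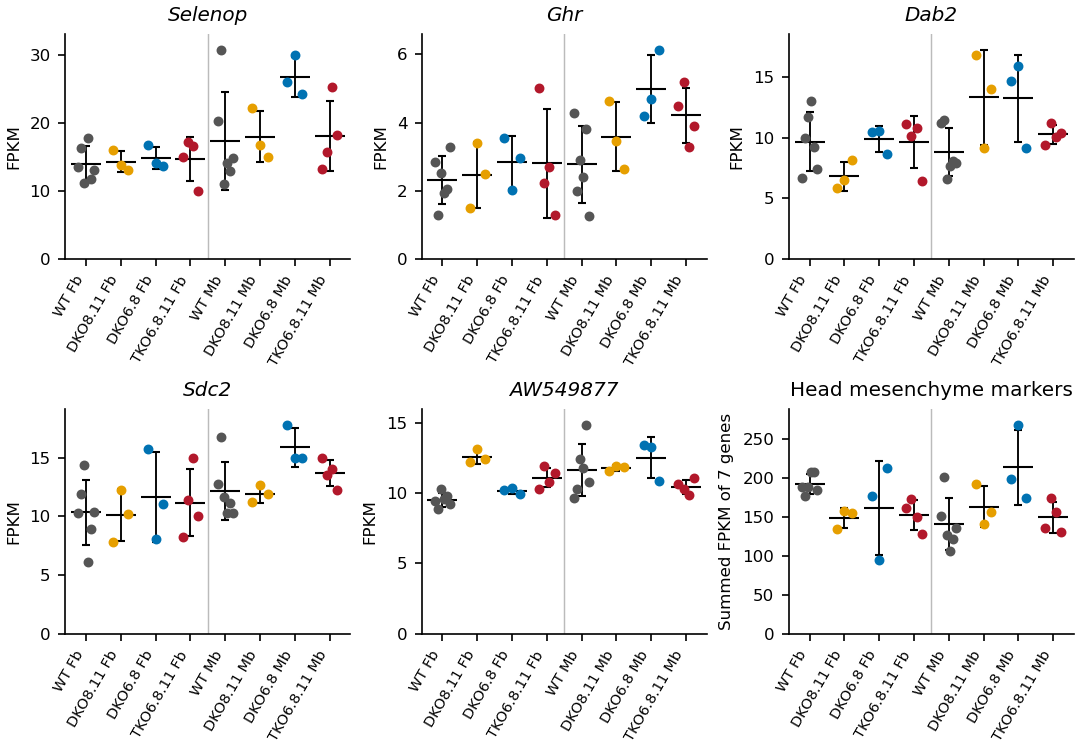
FPKM of 5 members with an unadjusted p under 0.05 in a comparison with WT, and the summed FPKM of 7 head mesenchyme markers, in every library of the 8 groups. Points are libraries, bars the mean ± SD. AW549877 lies above WT in DKO8.11 Fb and TKO6.8.11 Fb, and Selenop, Ghr and the marker sum are highest on average in DKO6.8 Mb.

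Set against DKO8.11 in place of WT, again 0 members passed. This comparison put embryos labelled as lacking Cdh6 beside mutant embryos not so labelled. In Fb, 0 of 47 members were called in TKO6.8.11 and 0 of 48 in DKO6.8, beside 0.0301% and 0.00753% of all genes. In Mb, 0 of 46 were called in TKO6.8.11 and 0 of 45 in DKO6.8, beside 0.127% and 0.0450%. With limma, unadjusted p was under 0.05 in Fb for 0 members in TKO6.8.11 (5.07% of all genes) and 2 in DKO6.8 (5.54%), and in Mb for 1 in TKO6.8.11 (7.46%) and 2 in DKO6.8 (6.48%). These were Dab2 (0.49) and Basp1 (0.30) in DKO6.8 Fb, Rad1 (-0.49) in TKO6.8.11 Mb, and Selenop (0.56) and Sdc2 (0.38) in DKO6.8 Mb. Libraries did not overlap for 2 members in TKO6.8.11 Fb (4.26% of members, 6.18% of all genes), 5 in DKO6.8 Fb (10.4%, 11.1%), 3 in TKO6.8.11 Mb (6.52%, 7.61%) and 7 in DKO6.8 Mb (15.6%, 12.2%).

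The difference between the Mb effect and the Fb effect of a genotype was tested as an interaction. With limma, 0 of 46 members passed for TKO6.8.11 (0.0149% of all genes), 0 of 46 for DKO6.8 (0.00746%) and 0 of 45 for DKO8.11 (0 genes). At an unadjusted p under 0.05 there were 2 members for TKO6.8.11 (6.50% of all genes), namely Fam173b (0.60) and AW549877 (-0.33), 0 for DKO6.8 (4.83%) and 2 for DKO8.11 (3.88%), namely Dab2 (0.96) and AW549877 (-0.34).

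Some members differed between the tissues. In WT, 2 of 45 tested members were higher in Mb than in Fb at an adjusted p under 0.05, beside 8.26% of all genes, and none was lower. These were Rai14 and Basp1, both of the cytoskeleton group. Rai14, an ankyrin-repeat protein bound to actin bundles, was at 16.8, 18.4, 14.5, 16.4, 15.1 and 15.7 FPKM in WT Fb and 30.1, 34.5, 25.1, 26, 23.9 and 24.2 FPKM in WT Mb, with no overlap. The difference was 0.71 (SE 0.10, adjusted p = 0.000396). Basp1 was at 161 to 200 FPKM in WT Fb, with a median of 187 FPKM, and at 217 to 298 FPKM in WT Mb, with a median of 242 FPKM, again with no overlap. The difference was 0.41 (SE 0.08, adjusted p = 0.00564).

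Rai14 lay higher in Mb in the mutants too. It was at 33.4, 27.6, 33.3 and 30.8 FPKM in TKO6.8.11 Mb against 16.6, 18.4, 16 and 14.9 FPKM in TKO6.8.11 Fb, a difference of 0.89 (SE 0.11, adjusted p = 0.00301), and it was the 1 member called of 46, beside 2.89% of all genes. In DKO8.11 it was at 31.6, 29.7 and 27.6 FPKM in Mb against 16.6, 17.7 and 16.1 FPKM in Fb (0.78, SE 0.11, adjusted p = 0.0158). In DKO6.8 it was at 29.2, 28.8 and 29.4 FPKM in Mb against 19.6, 14.4 and 18.7 FPKM in Fb (0.71, SE 0.14), which did not pass at an adjusted p of 0.120. The libraries of the tissues did not overlap in any group. Basp1 passed in DKO8.11 (0.59, SE 0.09, adjusted p = 0.0186), the other of 2 members called of 46 beside 2.58% of all genes. With the replicate number as a block, Basp1 still passed in DKO8.11 (adjusted p = 0.0346) and Rai14 did not (adjusted p = 0.0539), so that 1 member was called. Basp1 did not pass in TKO6.8.11 (0.39, adjusted p = 0.359), where Fb spread from 156 to 254 FPKM, or in DKO6.8 (0.31, adjusted p = 0.294). Of the 46 members tested in DKO6.8, 0 were called beside 0.507% of all genes. An unadjusted p under 0.05 was seen in 5 members (10.9%, beside 10.1% of all genes). Without any 1 of the DKO8.11 libraries, 0 or 1 of the 2 members called in DKO8.11 passed, beside 163 to 233 of all genes. No interaction with genotype passed for either gene, with an interaction of 0.17 (95% interval -0.14 to 0.48) for Rai14 in TKO6.8.11, 0.07 (-0.26 to 0.40) in DKO8.11 and an interval of -0.36 to 0.36 in DKO6.8. In TKO6.8.11, 3 members did not overlap between the tissues (6.52%, beside 8.94% of all genes), in DKO8.11 7 (15.2%, 20.5%) and in DKO6.8 11 (23.9%, 15.6%).

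Between WT tissues, Sema5a, a semaphorin that guides axons, was at 1.9 to 2.70 FPKM in Fb and 1.07 to 1.76 FPKM in Mb (-0.41, adjusted p = 0.0765), and Lifr at 2.0 to 2.43 FPKM in Fb and 2.77 to 4.18 FPKM in Mb (0.35, adjusted p = 0.0989). Neither overlapped between WT tissues and neither passed in this fit. Under alternative settings of limma, Sema5a passed with median-of-ratios scaling (adjusted p = 0.0485). Both passed without the mean-variance trend (0.0155 for Sema5a and 0.0296 for Lifr) and with all groups in 1 fit (0.0432 and 0.0264). Non-overlapping were 4 of 45 members in all, or 8.89%, beside 5.59% of all genes. Markers of other cell types also differed between the WT tissues. Head mesenchyme markers summed to 176 to 208 FPKM in WT Fb and 106 to 201 FPKM in WT Mb, which overlapped. Of these 7 markers, 4 were called lower in WT Mb and 1 was called higher. Surface ectoderm markers summed to 58.1 to 95.3 FPKM in WT Fb and 23.9 to 37.1 FPKM in WT Mb. The part of these cells in the tissue differences was not tested.

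**Figure D5:**
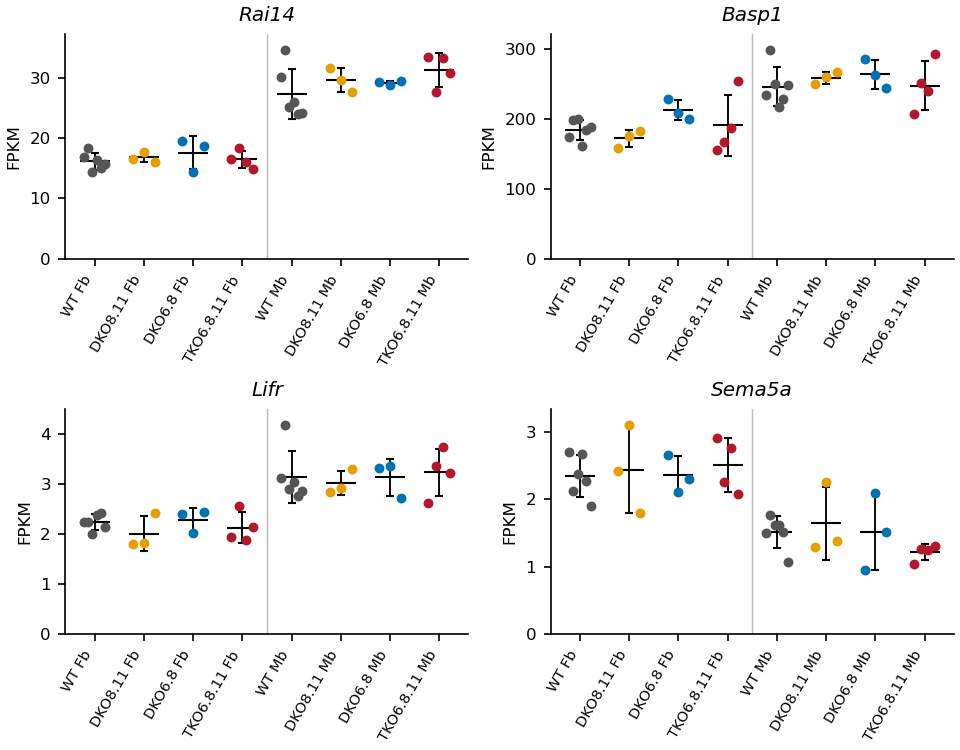
FPKM of Rai14, Basp1, Lifr and Sema5a in every library of the 8 groups. Points are libraries, bars the mean ± SD. Every Mb library of Rai14 lies above every Fb library, from 23.9 FPKM in Mb against at most 19.6 FPKM in Fb.

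The sequences before the starts of Rai14 and Basp1 are shown because both genes were called between the WT tissues. They cover 250 bases of GRCm38.p6 from RefSeq on the minus strand, at chr15:10714099-10714348 for Rai14 and chr15:25413765-25414014 for Basp1. Capitals mark the GC box GGGCGG, searched on both strands.
Rai14: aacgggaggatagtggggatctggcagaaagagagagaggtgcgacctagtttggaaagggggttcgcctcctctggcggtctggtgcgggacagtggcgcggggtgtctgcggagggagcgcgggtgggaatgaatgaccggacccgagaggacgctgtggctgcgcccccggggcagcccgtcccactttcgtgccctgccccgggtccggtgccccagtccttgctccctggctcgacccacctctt
Basp1: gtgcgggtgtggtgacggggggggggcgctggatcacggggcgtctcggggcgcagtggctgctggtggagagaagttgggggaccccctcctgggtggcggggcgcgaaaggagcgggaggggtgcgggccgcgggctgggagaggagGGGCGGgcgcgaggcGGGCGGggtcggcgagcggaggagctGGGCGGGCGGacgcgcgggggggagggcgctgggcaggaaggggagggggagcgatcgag
Both stretches were rich in CpG dinucleotides, with 20 in Rai14 (67.6% G or C) and 30 in Basp1 (78.8%). The median was 14 over the 70 members with such a window and 6 over all 32851 promoters in the table. The GC box was present before Basp1 and not found in the letters before Rai14, and 47.1% of the 70 members and 32.7% of all promoters held it. No match to CCGGAAG or ATTGG was found in either window.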

How the data were processed

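Per the labels and the methods, the authors mapped directional libraries with TopHat2 (GRCm38). The deposited FPKM are Cufflinks estimates, that is, values already normalized to gene length and to mapped fragments. Tool versions and annotation are not given in the sources used here. The authors' HTSeq counts and DESeq2 test were not used here. FPKM of 65 repeated identifiers were summed, and 48218 of 48576 identifiers were found in GENCODE M21. The depth was estimated from low values of 771 genes with 1 transcript of at least 4000 bp, of which 75.7% to 83.4% fell within 0.1 of a whole fragment.

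Libraries were grouped by the column headings, as TKO6.8.11, DKO8.11, DKO6.8 and WT. For each comparison a linear model of log2(FPKM + 1) was fitted by limma (version 3.58.1, R 4.3.3), its variances moderated with a trend on mean level, for genes averaging 1 FPKM or more in the libraries of that fit, with Benjamini-Hochberg adjustment over all of them (threshold 0.05). The pseudocount of 1 understates changes of low genes. Cdh6 was also tested by two-sided exact permutation tests in SciPy 1.17.1 under Python 3.11.15. With 4 against 6 libraries the smallest p such a test can give is 0.00952, and with 3 against 6 it is 0.0238. The limma fit was tested on simulated data, in which the spread of each gene was capped and only genes well above the filter were changed. It does not show how often changes of lower or more variable genes are missed. The labels do not say whether replicates were single embryos, so p-values measure the spread between these libraries.

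Named were Cdh6, Cdh8 and Cdh11, members past the threshold or apart from WT in both tissues, the 4 nearest tested members on each side of Cdh6, and 20 members picked for their roles. The members and lists were chosen with earlier results of these data known, and the comparisons between tissues were added after the data were seen. Deviations of same-numbered Fb and Mb libraries correlated at over 0.1 in every pair of DKO8.11 (0.10 to 0.16) but not in every pair of another group, so the blocked fit is given beside the tissue result of DKO8.11. Alternatives were no filter, pseudocounts of 0.1 and 5, median-of-ratios scaling, no mean-variance trend, all groups in 1 fit, the replicate number as a block, the grouping by record and leaving out each library. Sequences are those of RefSeq (GRCm38.p6).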

Additional observations from a re-analysis of the deposited data

Results flagged for a closer look

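Among 132 groups of 4 or 6 libraries, over 33 genes, 6 held a library far from the others by Dixon's test, where chance gives about 1 in 20. Mtmr12 was at 8.76 FPKM in WT Mb replicate 2, with the next library at 5.55 FPKM, and Lifr at 4.18 FPKM in the same library, with the next at 3.12 FPKM. Trio was at 5.48 FPKM in WT Fb replicate 5, above the next at 4.85 FPKM, and Nup155 at 9.09 FPKM in that library, below the next at 13.0 FPKM. Dap was at 21.8 FPKM in WT Mb replicate 6, with the next at 15.8 FPKM. Cdh6 was at 3.10 FPKM in the library labelled TKO6.8.11 Mb replicate 3, with the next at 0.388 FPKM.

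In 4 members every library of a mutant group lay on opposite sides of the WT mean in Fb and Mb, and the interaction was tested in each. The Mb effect minus the Fb effect was -0.33 for AW549877 in TKO6.8.11 (adjusted p = 0.745), 0.18 for Basp1 (1.0) and 0.96 for Dab2 (1.0) in DKO8.11, and -0.50 for Myo10 in DKO6.8 (0.990). None passed with limma.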

How the results depend on the processing

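In the 10 comparisons between genotypes and the 3 interactions, 0 members were called in all 260 values under the alternatives, left-out libraries included. Between tissues the counts moved. In WT, 3 members were called without the filter, 3 with median-of-ratios scaling, 4 without the mean-variance trend and 5 with all groups in 1 fit, against 2. Over all genes the calls were 1075 of 22610, 1231 of 13330, 1064 of 13344 and 1294 of 13441 in the same order, against 1102 of 13344. In TKO6.8.11 the counts without the trend and with all groups in 1 fit were 2 and 3, against 1. All genes called there were 421 of 13477 and 663 of 13441, against 389 of 13477. In DKO8.11 the counts of members under these 2 settings were 1 and 4, against 2. They were 0 with the grouping by record and 0 to 1 without 1 of its libraries. All genes called were 357 of 13314 and 542 of 13441, against 344 of 13314. With the grouping by record they were 68 of 13415, and without 1 library 163 to 233. In DKO6.8, 1 member was called with all groups in 1 fit and 2 with the grouping by record, against 0. All genes called were 362 of 13441 and 344 of 13314, against 68 of 13415. With the replicate number as a block, 1 member was called between the tissues of DKO8.11, beside 249 of 13314 genes, and no other count of members changed. Same-numbered Fb and Mb libraries of a group had correlations of 0.01 to 0.18, with 7 of 16 over 0.1, among them all 3 of DKO8.11, and 14 Fb and 13 Mb libraries correlated best with their own number. Same-numbered libraries of different genotypes had correlations of -0.11 to 0.06. Of 396 values of single genes, 378 kept their direction and side of the threshold, 13 no longer passed, 3 newly passed and 2 turned sign, both with the grouping by record, at -0.10 for Basp1 in DKO6.8 Fb and -0.0098 for Sdc2 in DKO6.8 Mb against WT. In the Mb the Cdh6 difference of TKO6.8.11 was -1.30 to -0.76 without 1 library. The filter limits the main tests to members averaging 1 FPKM or more. Without it 68 to 71 members were tested against WT, with 0 called. The cause of these changes was not tested.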
